A study of Homo sapiens with 6 samples.

Results

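CISH, SOCS1 to SOCS7, PIM1 and BCL6 were examined as a group of 10 cytokine feedback genes among the 16428 genes named in 4 lists of regions occupied by RNA polymerase II in HepG2 cells. Their regions were the entries that the deposited lists assigned to 1 of these 10 gene symbols, 136 of 271336 regions. HepG2 is a cell line from a human liver tumor, and the cells were untreated, so no cytokine had been added. SHP-1 WT cells were a CRISPR control that received a nontargeting guide, and SHP-1 KO cells carried a CRISPR knockout of PTPN6, the gene for the tyrosine phosphatase SHP-1. The KO lines were grown from single cells, so an effect of the knockout and a difference between clones cannot be told apart. RPB1, the largest subunit of RNA polymerase II, was recovered by ChIP with an antibody to its C-terminal domain (RPB1) or to that domain phosphorylated on serine 2 (pSer2). Each antibody was used in 1 library per genotype, and no difference between WT and KO cells below has a replicate check.

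When a cytokine binds its receptor, Janus kinases phosphorylate STAT transcription factors, which enter the nucleus and activate genes whose products then shut the receptor down. The SOCS proteins and CISH are the classic examples: they bind phosphorylated receptors or Janus kinases and recruit a ubiquitin ligase built on elongins and a cullin. PIM1, a serine/threonine kinase, and BCL6, a transcriptional repressor that can occupy STAT sites, are also known STAT targets. Serine 2 phosphorylation accompanies elongating polymerase and usually peaks toward the 3′ end of genes, whereas an RPB1 peak at a gene start also includes polymerase that has paused there.

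The value of a region is its fold enrichment over the input DNA of the same cells at the summit. The median fold enrichment over all regions was 5.51 in WT and 5.62 in KO cells for RPB1, and 3.69 in WT and 3.80 in KO cells for pSer2. PTPN6 itself had an assigned RPB1 fold enrichment of 24.0 in WT and 17.2 in KO cells, and a pSer2 fold enrichment of 4.03 and 5.24. By position, where a region upstream that the lists assigned to a neighbour is counted, the direction of RPB1 was reversed, with 50.4 in WT and 68.2 in KO cells, and pSer2 was 15.5 and 24.5. The guides were aimed at exons of the phosphatase domain, so polymerase at PTPN6 does not check the genotype. Of 16 hepatocyte marker genes, 15 had an RPB1 region in WT and 13 in KO cells, and 16 and 15 had a pSer2 region. Of 6 blood cell markers, 2 had an RPB1 region in WT and 1 in KO cells, none above a fold enrichment of 6.34, and none had a pSer2 region in either genotype. Of 5 fibroblast markers, 1 had an RPB1 region in each genotype, of 17.3 in WT and 14.5 in KO cells, and a pSer2 region of 2.69 in KO cells only. Of 5 endothelial markers, 1 had a region in each list, with RPB1 at 7.45 in WT and 7.87 in KO cells and pSer2 at 9.75 and 7.67.

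RPB1 occupied the start of most of these genes. By the assigned gene symbol, 7 of the 10 genes had an RPB1 region in WT and 8 in KO cells. SOCS4 and SOCS5 were among those without one, although a region lay across the start of each and was assigned to a neighbouring gene. When regions were taken by position, from 3 kb upstream of a gene to its end, 9 genes had an RPB1 region in WT and all 10 in KO cells. SOCS2 was the gene that differed. Over all genes, 3.95% of those named in either RPB1 list were named in the KO list only and 8.73% in the WT list only.

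pSer2 regions were called at fewer of these genes. By position, 7 genes had one in each genotype, and CISH, SOCS2 and SOCS3 had none in either. Of all protein-coding genes with an RPB1 region by position, 81.5% in WT and 77.6% in KO cells also had a pSer2 region. A gene without a region is one at which no enrichment was called, which is not a measured level of 0.

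**Figure D1:**
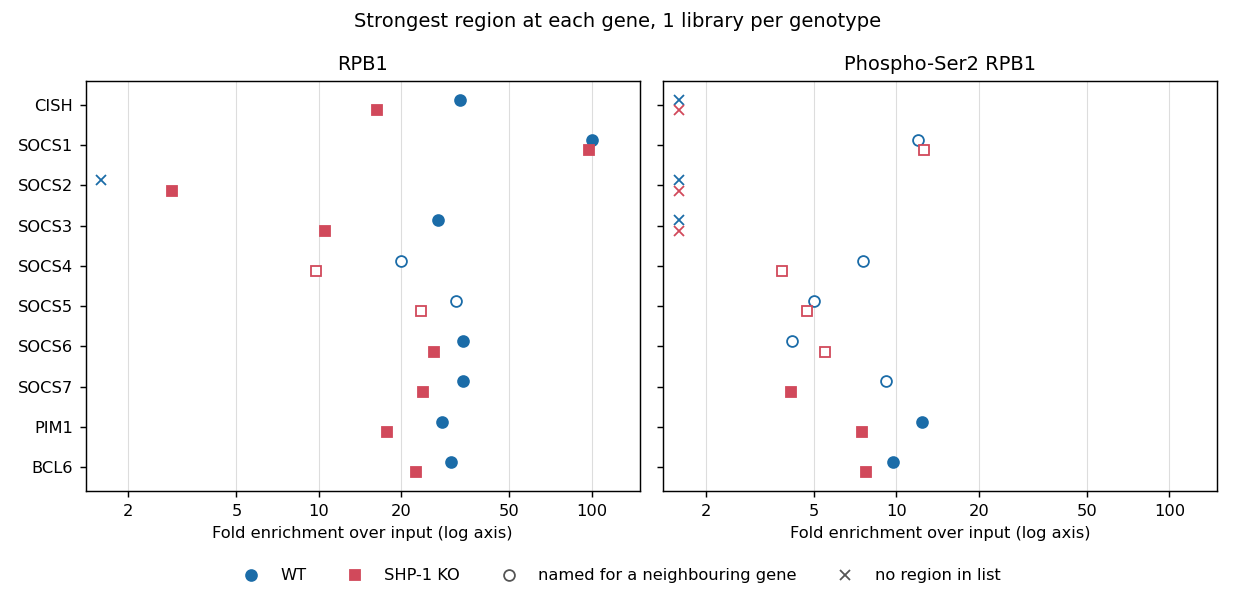
Fold enrichment over input on a log axis for the strongest region at each of the 10 genes, for RPB1 (left) and pSer2 (right), 1 library per genotype with no error bars. Circles are WT and squares KO cells, open symbols are regions that the lists assigned to a neighbouring gene, and crosses are genes with no region. SOCS1 stands at 100.2 and 97.7 for RPB1, and CISH, SOCS2 and SOCS3 have crosses in both genotypes for pSer2.

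SOCS1, which blocks Janus kinases directly, had by far the strongest RPB1 region of the group. It lay on chromosome 16 at chr16:11250346-11258338 in WT cells (hg38, as are all positions here), with a fold enrichment of 100.2 and rank 51 of 46045 regions. In KO cells it lay at chr16:11250365-11257980, with a fold enrichment of 97.7 and rank 18 of 41605. The region was 7993 bp long in WT and 7616 bp in KO cells and so covered the whole gene, which is 1788 bp, with the summit 22 bp after the start in WT and 42 bp in KO cells. SOCS1 lies on the minus strand inside the interval of RMI2, so the signal past its ends cannot be divided between the genes.

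pSer2 was also high at SOCS1 and close in both genotypes. The region at the start had a fold enrichment of 10.2 in WT and 10.5 in KO cells. A longer region over the 3′ end, assigned to RMI2, reached 12.0 in WT and 12.6 in KO cells, and its summit lay 2078 bp past the end of the gene in WT and 2103 bp in KO cells. Upstream of the start, a WT region of 5.75 had as its counterparts 2 KO regions of 3.16 and 3.02. pSer2 regions covered 59.5% of the gene and its 3 kb flanks in WT and 63.1% in KO cells.

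CISH, which binds STAT docking sites on cytokine receptors, had a single RPB1 region across its start in each genotype. In WT cells the region at chr3:50611366-50612358 had a fold enrichment of 33.0 and rank 4735. In KO cells the region at chr3:50611372-50612142 had a fold enrichment of 16.4 and rank 7523, which is 2.01-fold lower. The summits lay 33 bp and 53 bp after the start. Both regions overlapped an annotated part of MAPKAPK3 on the opposite strand. No pSer2 region was called at CISH.

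SOCS3, which binds the interleukin-6 receptor chain and Janus kinases, had the largest WT to KO ratio of RPB1 among these genes by the strongest region. The region across its start was chr17:78359681-78360245 in WT cells, with a fold enrichment of 27.3 and rank 6245, and chr17:78359798-78360189 in KO cells, with a fold enrichment of 10.6 and rank 10720. The KO value was 2.58-fold lower, and 2.91% of all genes had a ratio as low or lower. The region was 565 bp long in WT and 392 bp in KO cells. A second WT region of 4.73, with its summit 6939 bp after the start and beyond the gene, had no KO counterpart. The mean of all assigned regions in WT takes in that weak region. With that mean as the value, the log2 ratio was -0.60 at SOCS3, beside -1.54 at SOCS6, -1.01 at CISH and -0.80 at SOCS7. The KO means take in weak regions without a WT counterpart, of 4.02 and 4.49 at SOCS6 and 3.94 at SOCS7. By the strongest region these 2 genes had log2 ratios of -0.36 and -0.48. No pSer2 region was called at SOCS3.

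The sequence just upstream of the start was read for 9 of the genes, because the STAT proteins bind a palindrome that TTCNNNGAA describes. This motif reads the same on both strands, and it was searched in the 250 bp before the start of the Ensembl canonical transcript. Of 20007 protein-coding promoters, 5.67% held at least 1 match and 0.280% at least 2. CISH held 4 matches, a number reached by 3 promoters in all. BCL6 held 1, and the other 7 genes read held none. All 4 CISH matches and the BCL6 match lay inside an RPB1 region in both genotypes.

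The stretches that hold the CISH and BCL6 matches are shown with the matches in capitals, beside the SOCS1 promoter, which had the strongest RPB1 region and no match. They are written 5′ to 3′ on the minus strand, from chr3:50611992-50612019 and chr3:50611775-50611907 for CISH, chr3:187745482-187745502 for BCL6 and chr16:11256205-11256454 for SOCS1. The second CISH stretch and the SOCS1 stretch end at the base before the start.
CISH upstream pair: cgttTTCCTGGAAagTTCTTGGAAatct
CISH downstream pair: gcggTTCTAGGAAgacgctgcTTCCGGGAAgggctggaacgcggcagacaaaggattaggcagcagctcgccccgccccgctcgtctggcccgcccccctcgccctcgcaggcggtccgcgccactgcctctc
BCL6: ctcaaaTTCCGAGAAttgagc
SOCS1: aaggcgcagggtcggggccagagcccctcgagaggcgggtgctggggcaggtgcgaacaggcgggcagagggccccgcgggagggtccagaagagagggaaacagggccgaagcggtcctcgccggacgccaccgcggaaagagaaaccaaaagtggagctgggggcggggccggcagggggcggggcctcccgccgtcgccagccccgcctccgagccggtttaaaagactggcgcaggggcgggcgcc

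The CISH matches began at -241, -230, -129 and -112 relative to the start, in 2 close pairs. The BCL6 match began at -28. A match is a run of letters, and STAT binding was not measured in these libraries. The GC content of the 250 bp window was 68.8% for CISH, 54.4% for BCL6 and 74.0% for SOCS1.

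SOCS2, a regulator of growth hormone signaling, was close to the detection limit of the lists. No WT region of either antibody was called there. The KO RPB1 list held a region at chr12:93570678-93570992, with a fold enrichment of 2.91 and rank 41430 of 41605. Its summit lay at -1793 bp from the canonical start, but inside the annotated SOCS2 gene, which begins at chr12:93569814, and inside SOCS2-AS1. The 250 bp searched before the canonical start lay in no RPB1 region of either genotype. GHR, the growth hormone receptor gene, had no region in any list.

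SOCS4 and SOCS5, less studied family members linked to epidermal growth factor receptor turnover, each have the start of another gene within their RPB1 region. At SOCS4 an RPB1 region with a fold enrichment of 20.1 in WT and 9.79 in KO cells covered both its start and that of WDHD1 on the opposite strand, to which the lists assigned it. At SOCS5 the RPB1 region had a fold enrichment of 31.8 in WT and 23.6 in KO cells and was assigned to LINC01118. Neither region can be divided between the genes.

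The strongest pSer2 region of each gene lay far from the start. At SOCS4 the strongest one, assigned to MAPK1IP1L, lay over the 3′ end and had a fold enrichment of 7.54 in WT and 3.79 in KO cells. At SOCS5 the strongest one lay in an intron with a fold enrichment of 5.00 in WT, where its summit was 65689 bp after the start, and of 4.71 in KO cells, where it was 67147 bp after the start. A weaker SOCS5 region just upstream of the start had a fold enrichment of 2.76 in WT and 3.41 in KO cells. The KO list alone also held an intronic pSer2 region of 2.83 that was assigned to SOCS5 itself. Over all genes named in either pSer2 list, 4.23% were named in the KO list only and 14.1% in the WT list only.

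SOCS6 and SOCS7, which bind the insulin receptor pathway and other tyrosine kinase adaptors, had RPB1 regions of similar strength. At SOCS6 the region across the start had a fold enrichment of 33.9 in WT and 26.4 in KO cells. At SOCS7 it had a fold enrichment of 33.7 in WT and 24.2 in KO cells. SOCS6 also had 2 gene body regions of RPB1 in KO cells, of 4.02 and 4.49, without a WT counterpart.

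By the strongest region, pSer2 at SOCS6 was higher in KO cells, while RPB1 at its start was lower. The strongest assigned pSer2 region had a fold enrichment of 3.40 in WT and 4.35 in KO cells, and at the 3′ end, in regions assigned to LINC01909, the strongest values were 4.13 and 5.45. These are not the same regions in both genotypes. The WT region of 3.40 was overlapped by a KO region of 3.66, a log2 ratio of 0.11. The WT region of 4.13 was overlapped by a KO region of 3.32. From the KO side, the region of 4.35 overlapped a WT region of 3.09, and that of 5.45 a WT region of 4.06. The gene held 10 pSer2 regions by position in WT and 21 in KO cells. In both genotypes most of them had a −log10 q-value below 5. None of the assigned WT regions reached 5, so SOCS6 has no pSer2 ratio at that setting. All pSer2 regions covered 4517 bp of the gene and its 3 kb flanks in WT and 9274 bp in KO cells. Of all genes, 97.9% had a ratio of covered lengths at or below this one. Covered length was higher in KO cells by at least 1.5-fold for 4.93% of all genes.

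At SOCS7 the start and the 3′ end differed. The pSer2 region at the start had a fold enrichment of 4.23 in WT and 4.10 in KO cells. The region over the 3′ end, assigned to ARHGAP23, had a fold enrichment of 9.17 at chr17:38404202-38406469 in WT cells and of 3.90 at chr17:38403779-38406392 in KO cells.

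**Figure D2:**
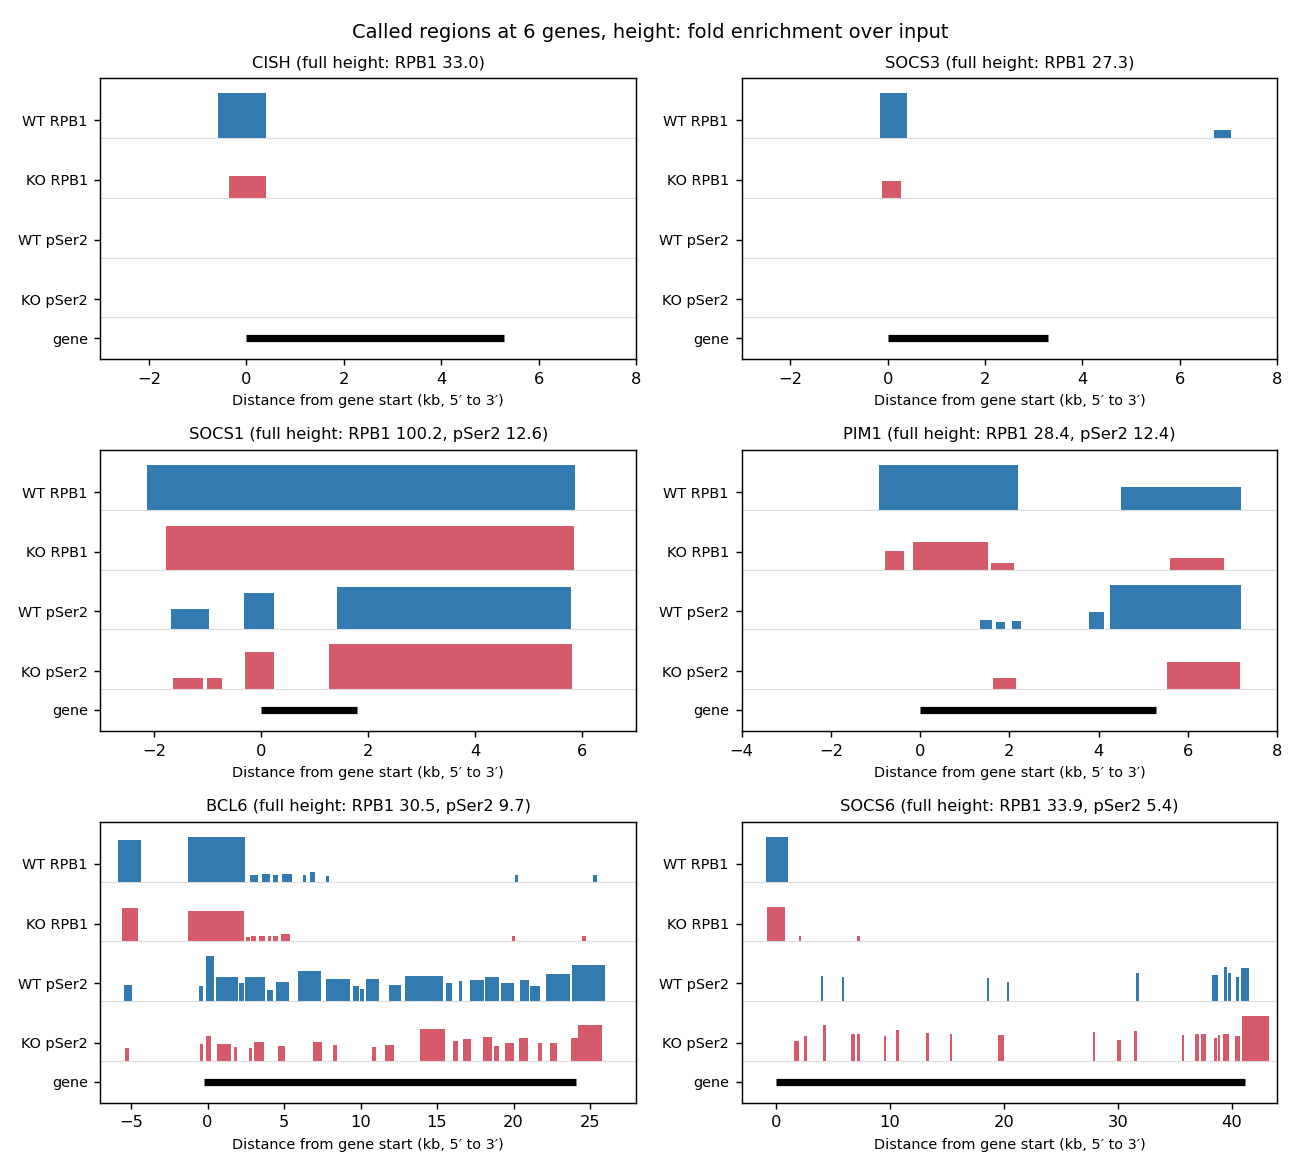
Called regions at 6 of the genes against distance from the canonical start in kb, with WT in blue and KO in red, and the gene as a black bar. Bar height is fold enrichment relative to the highest value of that antibody at that gene, given above each panel. CISH and SOCS3 have RPB1 at the start and no pSer2, and SOCS1 is covered end to end. SOCS6 shows 21 pSer2 regions in KO against 10 in WT cells, none above a fold enrichment of 5.45. Most of them had a −log10 q-value below 5.

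PIM1 had RPB1 at both ends and its strongest pSer2 at the 3′ end. The RPB1 region across the start had a fold enrichment of 28.4 at chr6:37169241-37172341 in WT cells. In KO cells 3 shorter regions lay there, of 11.9, 17.8 and 4.33. At the 3′ end RPB1 had a fold enrichment of 14.8 in WT and 7.69 in KO cells, and pSer2 had a fold enrichment of 12.4 at chr6:37174397-37177343 in WT and 7.48 at chr6:37175671-37177316 in KO cells. Weak pSer2 regions in the first part of the gene had fold enrichments of 2.54, 1.95 and 2.18 in WT cells and 3.02 in the 1 KO region, so the strongest of them was higher in KO cells, at a log2 ratio of 0.25. The ranks of the 3′ pSer2 regions were 1143 of 102674 and 4010 of 81012. By the strongest assigned region PIM1 was 1.59-fold lower in KO cells for RPB1 and 1.65-fold lower for pSer2.

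Further RPB1 regions lay upstream of PIM1, between genes, and were assigned to it as the nearest gene. The farthest, with its WT summit at -67381 bp from the start, had a fold enrichment of 12.3 in WT and 3.26 in KO cells. A cluster of 4 WT regions between chr6:37131367 and chr6:37138482, with fold enrichments of 4.23, 4.49, 3.55 and 7.38, had no KO counterpart. Assignment to the nearest gene does not show that these regions act on PIM1.

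BCL6 had the most regions, with RPB1 concentrated at its start and pSer2 spread over the gene. The RPB1 region across the start had a fold enrichment of 30.5 at chr3:187743017-187746718 in WT and of 21.1 at chr3:187743102-187746716 in KO cells, and it also held the starts of 3 genes annotated without a symbol. A separate RPB1 region, with its summit at -5180 bp from the start in WT and -5173 bp in KO cells, had a fold enrichment of 28.3 and 22.7. Another 8 regions in the gene, of 4.01 to 6.50, were called in WT cells and 7 regions, of 3.29 to 5.05, in KO cells.

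pSer2 at BCL6 differed between the start and the 3′ end. At the start it had a fold enrichment of 9.73 in WT and 5.34 in KO cells. At the 3′ end it had a fold enrichment of 7.84 in WT and 7.72 in KO cells. The gene held 23 pSer2 regions by position in WT and 21 in KO cells, but they covered 21231 bp, or 70.0%, of the gene and its 3 kb flanks in WT and 11973 bp, or 39.5%, in KO cells. Covered length of pSer2 was lower in KO cells by at least 1.5-fold for 31.1% of all genes, and PIM1 was the other gene of the group to pass that fold, with 3965 bp in WT and 2166 bp in KO cells. For RPB1, PIM1 alone passed it, with 5787 bp in WT and 3854 bp in KO cells, as did 20.0% of all genes, and no gene of the group was higher by that fold, as 3.32% of all genes were.

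**Figure D3:**
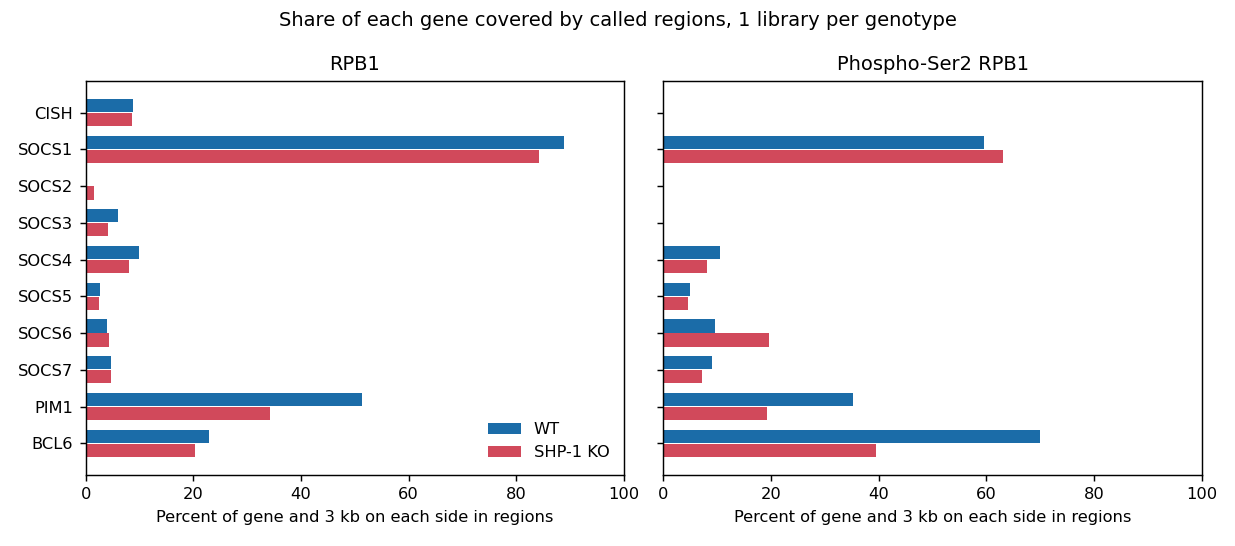
Percent of each gene and its 3 kb flanks inside called regions, for RPB1 (left) and pSer2 (right), WT in blue and KO in red, 1 library each. BCL6 has 70.0% of its length in pSer2 regions in WT and 39.5% in KO cells, and SOCS6 has 9.58% in WT and 19.7% in KO cells.

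To set the genes against the rest of the genome, the log2 ratio of KO over WT was taken for the strongest assigned region of each gene with a region in both lists. For RPB1 this gave 7 of the 10 genes and 12877 genes in all. All 7 were lower in KO cells, and so were 82.1% of all genes. The median log2 ratio was -0.48 over the 7 genes and -0.43 over all genes, with quartiles of -0.73 and -0.12. SOCS4 and SOCS5, which had regions by position only, had log2 ratios of -1.04 and -0.43, and by position CISH, SOCS3, SOCS4 and PIM1, 4 of 9 genes, were lower by at least 1.5-fold and none was higher, beside 39.0% and 1.28% of all genes.

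CISH, SOCS3 and PIM1 were lower by at least 1.5-fold, which is 3 of 7 genes, and 36.1% of all genes were lower by that fold. Among genes with a WT fold enrichment of 20 to 40, a range that holds 6 of the 7, it was 42.7%. None of the 7 was higher by 1.5-fold, as 2.68% of all genes were. With the median of all genes subtracted, SOCS3 alone was lower by 1.5-fold, at a log2 ratio of -0.94, and 9.64% of all genes passed on that scale. None was higher by that fold on it, as 11.3% of all genes were. CISH stood at -0.58, PIM1 at -0.24, SOCS7 at -0.05, BCL6 at 0.00, SOCS6 at 0.07 and SOCS1 at 0.39. The BCL6 value sets the WT region at the start against the KO region upstream of it. For the overlapping pair at the start its log2 ratio was -0.53 without the subtraction. The share of genes below the fold was thus near the genome-wide share.

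For pSer2, 5 of the 10 genes and 10870 genes in all could be compared. PIM1, BCL6 and SOCS7 had log2 ratios of -0.72, -0.33 and -0.04, and SOCS1 and SOCS6 of 0.03 and 0.36. Their median was -0.04, beside -0.09 over all genes. By the strongest region PIM1 was the 1 gene lower by at least 1.5-fold, as were 11.7% of all genes. None was higher by that fold, as were 5.71%. The BCL6 ratio sets the WT region at the start against the KO region at the 3′ end. For the overlapping pair at the start it was -0.87, also past that fold, while the 3′ end had 7.84 in WT and 7.72 in KO cells. By position, SOCS4, SOCS7 and PIM1 were lower by at least 1.5-fold, 3 of 7 genes, and none was higher, beside 12.9% and 6.28% of all genes. The KO region at the 3′ end of PIM1 starts just past the end of the gene and is left out by position.

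**Figure D4:**
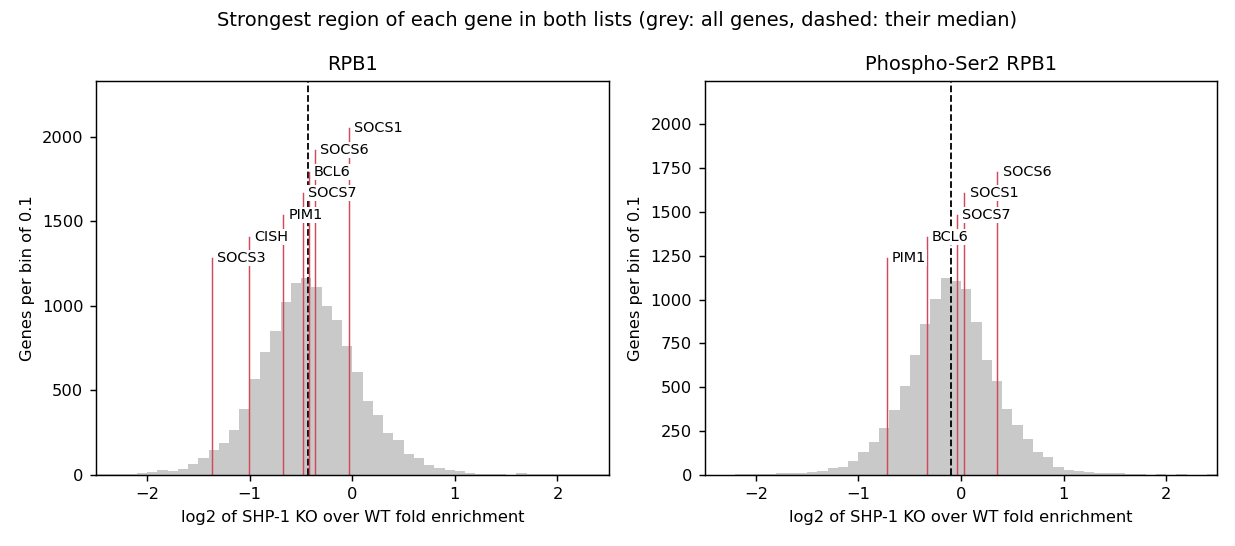
Histogram of the log2 ratio of KO over WT fold enrichment for the strongest region of each gene, for 12877 genes with RPB1 (left) and 10870 with pSer2 (right), in bins of 0.1 that also take values beyond the axis into the end bins. The dashed lines mark the medians of all genes, -0.43 and -0.09, and the red lines mark the feedback genes, of which SOCS3 and CISH for RPB1 and PIM1 for pSer2 lie farthest to the left.

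The regions called in one genotype were compared with those of the other. Of 25 WT RPB1 regions at the 10 genes, 16 were overlapped by a KO region (64.0%, Wilson 95% interval 44.5 to 79.8%), beside 61.9% of all WT RPB1 regions. Of the other 9, 4 lay at BCL6, 4 upstream of PIM1 and 1 beyond SOCS3. Of 41 WT pSer2 regions, 26 were overlapped (63.4%, 48.1 to 76.4%), beside 52.2% of all. BCL6 held 18 of these 26, and of the 17 WT pSer2 regions at the other genes 8 were overlapped (47.1%, 26.2 to 69.0%). In the other direction, 66.7% of the 45 KO pSer2 regions were overlapped by a WT region, beside 69.9% of all, and 80.0% of the 25 KO RPB1 regions, beside 74.9%. These intervals cover counting error only, and regions of 1 gene are not independent. Of the 41 WT pSer2 regions, 41.5% were annotated as promoter, beside 23.9% of all. BCL6 held 11 of those 17 promoter regions, with summits up to 20830 bp after its canonical start.

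The other genes of the pathway, listed with earlier results known, were counted in the same way. Of the elongin, cullin and RING partners that the SOCS proteins recruit, 5 had an RPB1 region in both genotypes, of which 3 were lower in KO cells by at least 1.5-fold, a fold that 36.1% of all genes passed. Of 16 cytokine receptor chains, 12 had one and 5 of those were lower by that fold. Of 11 Janus kinases and STATs, 10 had one and 5 were lower, and of 11 other negative regulators 9 had one and 2 were lower. Of the paralogs, PIM2 was lower, with 55.6 in WT and 25.3 in KO cells. PIM3 was lower by the assigned symbol only, and by position its RPB1 was 113.6 in WT and 104.0 in KO cells. None of these genes was higher for RPB1 by that fold, as 2.68% of all genes were. For pSer2 the counts of lower genes were 3 of 5, 3 of 10, 2 of 8, 1 of 7 and 0 of 2 in the same order, and 1 receptor chain was higher, beside 11.7% lower and 5.71% higher over all genes. By position, 39.0% of all genes were lower for RPB1 and 12.9% for pSer2. The counts by position for RPB1 were 3 of 6, 9 of 14, 7 of 10, 3 of 10 and 1 of 2. For pSer2 they were 5 of 6, 4 of 11, 1 of 7, 2 of 8 and 0 of 2. In the same comparison 2 of the other negative regulators were higher for pSer2, as were 6.28% of all genes. The receptor chain that was higher for pSer2 by symbol was lower by position, with 4.03 in WT and 2.78 in KO cells.

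The genes below are named because they were lower by at least 1.5-fold for both antibodies by assigned symbol. The share of all genes that passed both folds was not counted. By position the set differed. A cullin gene (log2 ratios of -0.88 and -0.68) and a receptor chain (-0.93 and -0.61) also passed both, and STAT3 had no pSer2 ratio. EPOR, the erythropoietin receptor, had an RPB1 fold enrichment of 20.5 in WT and 7.60 in KO cells and pSer2 values of 6.25 and 3.66. IL6ST, the shared interleukin-6 receptor chain, had RPB1 values of 46.2 and 30.3 and pSer2 values of 8.52 and 5.60. STAT3, the main interleukin-6 STAT, had RPB1 values of 34.8 and 19.8. Its pSer2 values were 5.31 and 2.75, in regions just past the 3′ end of the gene. By position STAT5A had the same WT pSer2 value of 5.31, against 3.11 by assigned symbol. The WT region may thus not belong to STAT3 alone. PTPN1, a phosphatase of Janus kinases, had RPB1 values of 43.7 and 24.9 and pSer2 values of 4.38 and 2.75. ELOB, the elongin B gene, had RPB1 values of 48.9 and 26.9 and pSer2 values of 13.7 and 7.31.

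ELOC, the elongin C gene, passed both folds by assigned symbol only. Its KO region at the start was assigned to a neighbour, and by position RPB1 was 22.2 in WT and 16.1 in KO cells. RNF7 had an assigned region in WT cells alone for both antibodies, and by position its RPB1 was 16.4 in WT and 14.6 in KO cells and its pSer2 8.02 and 4.44.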

How the data were processed

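HepG2 ChIP libraries for RPB1 and pSer2 from both genotypes were used, 1 per antibody and genotype. The 2 input libraries were not analysed here.

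Per the study's methods, the authors used Trimmomatic for trimming, BWA for alignment to hg38 and MACS2 for narrow peaks, called library by library with the matching input as background. Versions are not given in the sources used here. The deposited lists hold each region's ratio to input at the summit (fold enrichment), the −log10 of its p-value and q-value from the authors' peak calls, its annotation and its nearest gene. A further table of the authors' RPB1 comparison of KO with WT, with numbers of windows up and down, p-values and directions, was not used.

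The fold enrichments were used as deposited, with no rescaling. A gene's value was its strongest assigned region. By position, a region touched the interval from 3 kb upstream of a gene to its end in GENCODE release 44. Of 22 transcripts named at the 10 genes, all 22 were in that release and 17 had the same start and end. Promoter sequences were read from hg38, and 250 bp were searched at 9 of the 10 genes. The other one is not reported here. Rank 1 is the highest fold enrichment. A fold of 1.5 was counted. Overlap required 1 bp. Functions were tested on simulated data. The tools were SciPy 1.17.1, NumPy 2.4.6, pandas 2.3.3 and Python 3.11.15.

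The lists carry no read counts, so depth is unknown, and no test was made. All 10 genes are named. Of the pathway lists, up to 6 genes were to be named. They had to pass the fold in both antibodies or have a region in 1 genotype alone for both. RNF7 was named beyond that limit after its values were seen. GHR, PTPN6, PIM2, PIM3 and STAT5A were named outside that rule. The genes and lists were chosen with earlier results of these data known. The range of WT values from 20 to 40, the covered lengths, the pathway counts by position and the overlap without BCL6 were added after the values were seen. Alternatives comprised regions by position, promoter regions only, the mean of a gene's regions, subtraction of the median of all genes, overlapping pairs, other folds, merged intervals and a reciprocal overlap, besides a minimum −log10 q-value of 5.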

Additional observations from a re-analysis of the deposited data

Results flagged for a closer look

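SOCS1 and SOCS6 had RPB1 and pSer2 ratios of opposite sign, with lower RPB1 and higher pSer2 fold enrichment at the strongest region in SHP-1 KO cells. The log2 ratio of KO over WT for pSer2 minus that for RPB1 was 0.069 at SOCS1, where RPB1 was -0.04 and pSer2 was 0.03. It was 0.72 at SOCS6, where RPB1 was -0.36 and pSer2 was 0.36. Of all genes, 82.1% were lower in KO cells for RPB1 and 59.7% for pSer2. The share of all genes with lower RPB1 and higher pSer2 was not counted. With the median of all genes subtracted, RPB1 and pSer2 were both positive, at 0.39 and 0.13 for SOCS1 and 0.07 and 0.45 for SOCS6. With the mean of a gene's regions as the value, the pSer2 ratio of SOCS1 was -0.53, the same sign as RPB1. For the KO region that overlaps the strongest WT one, the pSer2 ratio of SOCS6 was 0.11. The strongest assigned KO pSer2 region of SOCS6, of 4.35, overlapped a WT region of 3.09. With 1 library per antibody and genotype, the difference was not tested.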

How the results depend on the processing

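No paired analysis was possible because each antibody and genotype has 1 library. Depth is unknown, a region missing from a list is not a measured 0, and MACS2 scales each library against its own input, so a shift shared by all genes cannot be told apart from a difference in enrichment between libraries.

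Counts of regions fell by construction with fewer regions kept. Keeping a −log10 q-value of 5 or more, 13 KO RPB1, 27 WT pSer2 and 22 KO pSer2 regions were left, and with promoter regions only 11 WT and 13 KO RPB1 and 17 WT and 16 KO pSer2 regions. The share of WT RPB1 regions overlapped in KO was 84.2% by position and 81.8% for promoter regions. For pSer2 it was 82.4% for promoter regions and 31.7% with a reciprocal overlap of 50%. The median log2 ratio of RPB1 was -0.60 with the mean of a gene's regions and -0.052 with the median of all genes subtracted. The number of genes lower for RPB1 was 1 with that subtraction and 6 at the lower fold threshold. For pSer2 the median was -0.19 at the stricter q-value, -0.51 by position, 0.15 with the mean of regions and 0.052 with the median of all genes subtracted, the last 2 with the sign changed. The number lower for pSer2 was 3 by position, 0 with the mean of regions, 2 with overlapping pairs, 2 at the lower fold threshold and 0 at a fold of 2, and 1 gene was higher at the lower threshold. PIM1 changed sign for pSer2, to 0.25 with promoter regions only, which leaves out its 3′ end, and to 0.15 with the mean of regions. For the other values the cause was not tested.

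Of 70 single-gene log2 ratios under an alternative, 8 had the other sign: those of PIM1 above, SOCS1, SOCS6 and BCL6 for RPB1 with the median of all genes subtracted (0.39, 0.07 and 0.0042), SOCS7 for pSer2 with that subtraction (0.05) and with the mean of regions (0.20), and SOCS1 for pSer2 with the mean of regions (-0.53). Of the group values, 57 stayed within the tolerance set for them, 23 moved beyond it and 2 changed sign.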
